A study of Mus musculus with 5 samples.

Results

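Pericentral hepatocytes are the liver parenchymal cells that line the central vein of the hepatic lobule, where blood leaves it. They were followed here through 5 single-cell libraries of liver cells from C57BL/6J mice, with 1 library per group. The groups were P14 mice (postnatal day 14, no surgery), an adult control without surgery, and adult mice that had 2/3 partial hepatectomy (PHx) at 8 weeks of age and were taken 24 h, 48 h or 96 h later. Livers were dissociated by 2-step perfusion, dead cells were removed on a column kit, and libraries were made with the 10x v3 kit and read on a NovaSeq. A protocol text shared by all samples counts the adult control among the operated mice, whereas its title, source and characteristics name no operation, so it was treated as the unoperated control. Neither the sex nor the number of mice is given in the labels.

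Members were chosen by a rule. A barcode counted as a hepatocyte when it had at least 5000 unique molecular identifiers (UMIs), a mitochondrial share of 10 to 30% and at least 1% of its UMIs in Alb, Apoa1 and Ttr. Its zone score was the log2 ratio of the UMIs of 4 pericentral genes (Cyp2e1, Cyp1a2, Oat and Glul, plus 1) to those of 4 periportal genes (Cyp2f2, Hal, Sds and Hsd17b13, plus 1). The highest 25% of scores within each library were called pericentral, which gave 1427 of 5691 hepatocytes: 527 of 2106 from P14, 232 of 925 from the adult control, 294 of 1170 from 24 h, 180 of 719 from 48 h and 194 of 771 from 96 h. The other 4264 hepatocytes served for comparison, with the middle 50% (2830) and the lowest 25% (1434) of scores also kept apart. Because 25% was taken from every library, the number of pericentral cells says nothing about the size of the zone. Among all hepatocytes 3 barcode sequences occurred in a pair of libraries, and 1 of them was a member in both.

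Blood enters the lobule at the portal vein and flows past plates of hepatocytes to the central vein, so oxygen, nutrients and hormones fall along the way. Hepatocytes divide their work along this axis. Those at the portal end make glucose and urea and catabolise amino acids, and those at the central end carry out drug oxidation, bile acid synthesis and the capture of leftover ammonia as glutamine. Wnt proteins from endothelial cells of the central vein act through beta-catenin and TCF/LEF factors to keep up the pericentral programme. After PHx the remaining hepatocytes leave quiescence, copy their DNA and divide until liver mass is regained.

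The promoters of the Wnt target Sp5 and of Slc1a2, the gene with the highest fitted difference of the 416 called higher in pericentral hepatocytes, are shown because both hold the core of the TCF/LEF motif, through which this pathway acts. Each run holds 250 bases before to 50 bases after the RefSeq transcript start (GRCm38.p6, the assembly behind mm10), 5′ to 3′ on the strand of the gene, and capitals mark CTTTGA or its reverse complement TCAAAG. The first is Sp5, at chr2:70474673-70474972 on the plus strand, and the second Slc1a2, at chr2:102706188-102706487 on the plus strand.
Sp5: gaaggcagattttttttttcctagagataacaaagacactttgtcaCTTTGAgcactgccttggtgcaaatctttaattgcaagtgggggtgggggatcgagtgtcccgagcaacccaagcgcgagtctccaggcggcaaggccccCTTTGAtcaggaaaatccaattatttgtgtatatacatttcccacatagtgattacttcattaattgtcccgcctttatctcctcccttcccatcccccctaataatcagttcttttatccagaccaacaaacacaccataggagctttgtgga
Slc1a2: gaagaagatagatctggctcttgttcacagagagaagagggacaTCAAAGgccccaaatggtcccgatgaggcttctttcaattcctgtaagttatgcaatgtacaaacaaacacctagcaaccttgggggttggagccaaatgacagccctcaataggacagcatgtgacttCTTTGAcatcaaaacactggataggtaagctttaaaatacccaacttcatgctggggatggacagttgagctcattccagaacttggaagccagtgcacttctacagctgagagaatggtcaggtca
The Sp5 promoter holds 2 matches, which start 204 and 104 bases before the transcript start, and the Slc1a2 promoter holds 2, which start 206 and 77 bases before it. At least 1 match stood in 16% of all 32851 promoters of this length, and in 14.4% of the 8513 tested genes with a promoter in the table. It stood in 18.2% of the 27025 genes with a promoter when all promoters of a gene were counted together. Among the genes called in the zone test given further on, 69 of 319 higher genes (21.6%) and 64 of 354 lower genes (18.1%) held a match. It stood in 8 of 25 genes with a promoter (32%) among the listed pericentral genes, in 2 of 8 (25%) of the Wnt pathway list and in 2 of 14 (14.3%) of the listed periportal genes. A match is a string of letters and not a shown binding site.

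The genes that chose the members are given as a description only. Cyp2e1, an ethanol- and drug-oxidising cytochrome, had UMIs in 99.7% to 100% of members. Of the UMIs of the 4 pericentral genes in members, Cyp2e1 gave 82.4% (P14), 64.7% (adult control), 20.8% (24 h), 44.7% (48 h) and 54.1% (96 h). Oat, the ornithine aminotransferase of the central end, gave 2.79%, 17.1%, 67.7%, 35.1% and 23.8% in the same order, so that at 24 h the score rested more on Oat than on Cyp2e1. Glul, the glutamine synthetase that marks the layer of cells at the vein itself, had UMIs in 85.2%, 63.8%, 52.04%, 69.4% and 56.2% of members. In the lowest 25% the share was 65.5%, 37.4%, 16.6%, 25.6% and 11.3%. After thinning to 5000 UMIs per barcode the shares were 39.5%, 31.9%, 26.2%, 29.4% and 22.7% in members and 14.04%, 8.82%, 3.73%, 5.00% and 4.12% in the lowest 25%, which serves as the background here. At that depth all 4 pericentral genes were present together in 61 of 527 P14 members, 64 of 232 adult control members, and 65 of 294, 42 of 180 and 41 of 194 members in the order of hours after PHx. Most members thus lacked a Glul UMI at equal depth. Cyp2e1 had UMIs in 98.3% to 100% of members at that depth, and in 82.2% (P14), 62.2% (adult control), 19.3% (24 h), 27.2% (48 h) and 6.70% (96 h) of the lowest 25%, so that its presence set members apart least in P14.

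The score limit for membership was 3.65 (P14), 1.91 (adult control), 4.52 (24 h), 5.35 (48 h) and 1.82 (96 h). Few cells lay at the limit in the adult control, with 13 members within 0.5 above it and 11 other hepatocytes within 0.5 below it, against 161 and 175 in P14. The lowest member of the adult control had a score of 1.907 and the highest other hepatocyte 1.893. Since the score depends on depth, it was also taken after each barcode had been thinned to 5000 UMIs. The adult limit on that scale, 1.848, was passed by 51.3% of P14 hepatocytes, 25.1% of adult control hepatocytes, and 41.4%, 50.3% and 23.99% of those taken 24 h, 48 h and 96 h after PHx. These shares describe the 8 genes of the rule, whose make-up differed between libraries as given for Oat, and they support no comparison between groups.

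**Figure D1:**
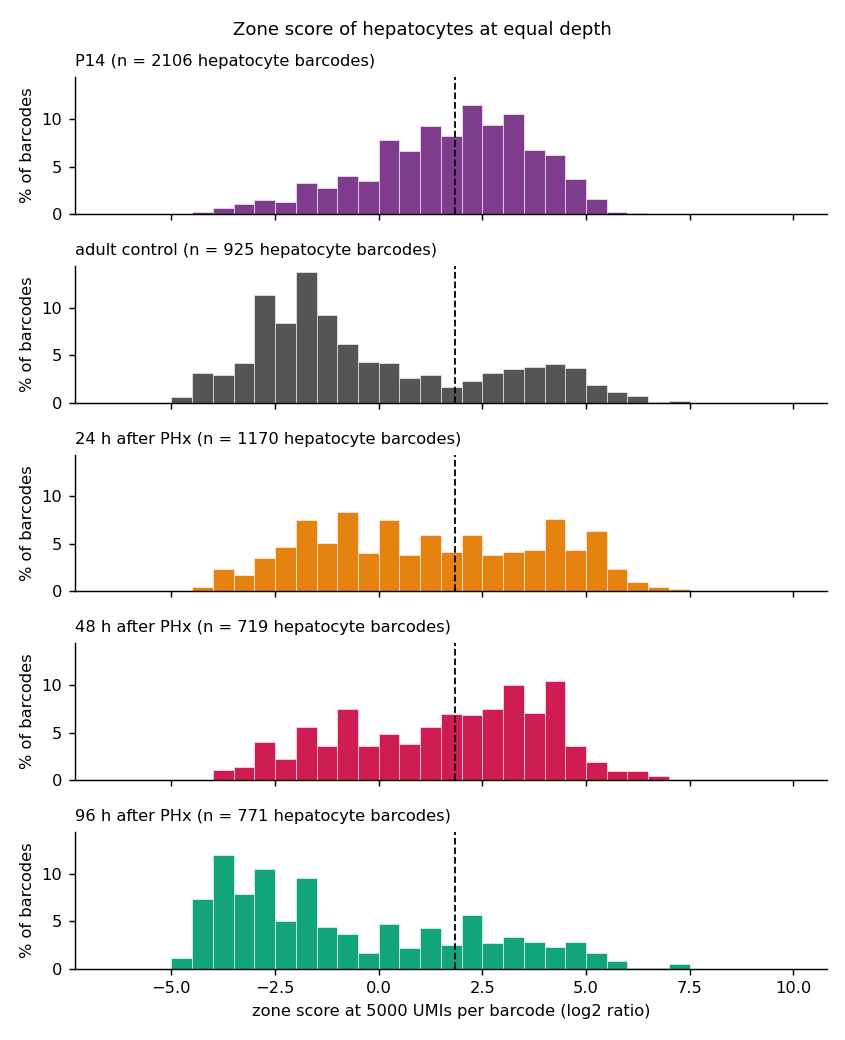
Distribution of the zone score after thinning to 5000 UMIs per barcode, as the percentage of hepatocyte barcodes in bins of 0.5, with the adult limit of 1.848 as a dashed line. The adult control and 96 h libraries have most barcodes below 0 and a smaller upper group, P14 has a single broad peak, and the libraries at 24 h and 48 h spread over the whole range.

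Depth and RNA composition of members were set beside those of the other hepatocytes. Median depth of members was 40711 (P14), 19738 (adult control), 17942.5 (24 h), 37592 (48 h) and 26140.5 UMIs (96 h), against 38313, 18109, 20039.5, 35262 and 20985 UMIs in the other hepatocytes. The median mitochondrial share lay between 19.2% and 25.6% in members and between 21.0% and 26.2% in the others, and was lower in members in all 5 libraries. Alb, Apoa1 and Ttr, secreted proteins used in the rule, made up a median of 11.4% (P14), 1.73% (adult control), 1.74% (24 h), 2.41% (48 h) and 4.59% (96 h) of the UMIs of members and 11.2%, 3.14%, 2.21%, 2.69% and 6.00% of those of the others. The libraries held 80927744 to 136110607 UMIs, and free RNA in empty droplets came to a median of 1330 UMIs in the adult control against 287 to 775 in the other 4. Genes of other cells were summed in the same way. In members the 10 macrophage genes summed to 0.882 to 10.5 CPM (UMIs per 1000000 UMIs of the sum), the 15 endothelial genes to 12.8 to 28.4 CPM, the 12 lymphoid genes to 2.70 to 27.01 CPM, the 8 mesenchymal genes to 3.05 to 72.4 CPM and the 5 bile duct genes to 3.82 to 21.6 CPM. The macrophage, endothelial and lymphoid sums of members were highest in the adult control. At 96 h members stood above the other hepatocytes for endothelial (23.9 against 9.86 CPM) and lymphoid genes (21.6 against 7.47 CPM). At 48 h they stood below them, with 13.3 against 24.8 CPM and 17.2 against 25.4 CPM. In the other hepatocytes the bile duct genes, which include Spp1, came to 62.2 (P14), 45.6 (adult control), 126.9 (24 h), 54.8 (48 h) and 255 CPM (96 h), above members in all 5 libraries. In the 4 adult libraries Krt19, Krt7 and Epcam were at 0 UMIs in the other hepatocytes, so these sums came from Sox9 and Spp1 alone. In the other hepatocytes of P14 all 5 bile duct genes had UMIs. Krt19 of bile ducts and Col1a1 of mesenchymal cells were at 0 UMIs in members of all 5 libraries. Haemoglobin and the other erythroid genes summed to 51.3 CPM in P14 and to 316 to 1073 CPM in the other libraries, where they were not scarce. The other hepatocytes had 149 CPM (P14), 696 (adult control), 453 (24 h), 648 (48 h) and 329 (96 h) of them. In members neutrophil and monocyte genes summed to 118 and 191 CPM at 24 h and 48 h against 18.9 to 46.9 CPM in the 3 others, and in the other hepatocytes to 106 and 203 CPM at those times. Xist, which is transcribed from the inactive X chromosome of females, stood at 867 CPM in P14 members and at 0 UMIs in members of the 4 adult libraries. The Y-linked Ddx3y was at 0 UMIs in P14 and at 125, 147, 117 and 141 CPM in the 4 others, so age and sex cannot be told apart in comparisons of P14. The description code of the adult control ends in L002 and that of the other libraries in L001, so any effect of it cannot be told apart from that of the group.

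The zone comparison asked which genes, apart from those of the score, differed between pericentral and other hepatocytes of the same library. Of 10804 genes tested, 416 were higher in pericentral hepatocytes (3.85%) and 478 lower (4.42%), 894 in all (8.27%), in edgeR's quasi-likelihood test on summed UMIs with the library as a block and a Benjamini-Hochberg adjusted p under 0.05. In all 5 libraries 375 of the higher and 447 of the lower genes had the sign of the fit. At least a 2-fold difference was fitted for 95 of all genes called higher and 101 of all called lower, whatever their sign in single libraries. Without the 48 h library the counts were 226 higher and 323 lower, without the adult control 231 and 248, without the 24 h library 237 and 241, without the 96 h library 262 and 313, and without P14 498 and 602. With a limit of 20% mitochondrial UMIs, which left few adult cells, they were 140 and 163. The cells were sorted by 8 genes of the same barcodes, so a gene that varies together with any of these in single cells differs by construction, and the test asks how evenly it did so in the 5 libraries.

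Cytochrome genes of the Cyp2a and Cyp2c families were among the genes with the highest fitted differences. Cyp2a5, the coumarin hydroxylase, was at 22.2 CPM (P14), 146 (adult control), 90.9 (24 h), 57.9 (48 h) and 225 (96 h) in members and at 4.47, 9.85, 1.15, 0.985 and 5.42 CPM in the other hepatocytes in the same order. Members were higher in all 5 libraries, with a fitted log2 difference of 4.25 ± 0.43 (fit over 5 libraries, edgeR adjusted p = 1.9e-04). The value after ±, here and below, is an SE derived from the F statistic of the edgeR fit. It was not taken from the spread of the 5 library values. Cyp2c29 was at 449 CPM (P14), 1295 (adult control), 2684 (24 h), 2774 (48 h) and 1635 (96 h) against 354, 57.9, 279, 528 and 94.3 CPM. Its fitted difference was 2.94 ± 0.50 (edgeR adjusted p = 0.0048), and the library values ran from 0.34 in P14 to 4.46 in the adult control. Cyp2c37 (2.87 ± 0.44), Cyp2c54 (2.09 ± 0.30) and Cyp2c50 (2.00 ± 0.19) followed. Reads of these neighbouring Cyp2c genes are alike, and how the counting shared them out is not given in the sources used here. Cyp7a1, the rate-limiting enzyme of bile acid synthesis, was at 142 CPM (P14), 56.2 (adult control), 73.4 (24 h), 334 (48 h) and 352 (96 h) in members. The other hepatocytes had 44.9, 9.75, 29.3, 148 and 100.2 CPM, which gave a fitted difference of 1.61 ± 0.13 (edgeR adjusted p = 4.0e-05).

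Slc1a2, a plasma membrane glutamate transporter, had the highest fitted difference among called genes with a mean of at least 50 CPM over the 10 sums and 1 sign in all 5 libraries. It was at 38.3 CPM (P14), 207 (adult control), 102 (24 h), 90.3 (48 h) and 151 (96 h) in members, and at 0.485, 10.4, 0.540, 0.197 and 0.729 CPM in the other hepatocytes. The fitted difference was 5.97 ± 0.39 (edgeR adjusted p = 1.1e-05), and its promoter is the second one shown above. Rhbg, an ammonium transporter, was at 26.2 CPM (P14), 14.2 (adult control), 6.69 (24 h), 15.2 (48 h) and 10.8 (96 h) in members, and at 3.23, 0.622, 1.28, 1.38 and 1.04 CPM in the others, and its fitted difference was 3.19 ± 0.19 (edgeR adjusted p = 7.6e-06). Slc22a3, an organic cation transporter, was at 10.6 CPM (P14), 9.18 (adult control), 17.7 (24 h), 10.6 (48 h) and 3.97 (96 h) in members and at 0.569, 0.415, 0.608, 0.131 and 0 CPM in the others, with 4.69 ± 0.26. Outside the pericentral 25% these 3 transporters thus stood below 2 CPM, except for Slc1a2 in the adult control and Rhbg in P14. Csad of taurine synthesis (1.61 ± 0.16), the fatty aldehyde dehydrogenase gene Aldh3a2 (2.33 ± 0.39) and Gstm2 of glutathione conjugation (1.66 ± 0.25) were also among the 12 highest such genes. Lpl, the lipoprotein lipase gene, at 2.39 ± 0.46, and Mup11, a major urinary protein gene, at 1.60 ± 0.32, completed the 12. Of the 22 genes so named, these last 2 lost their call when a library was left out, at adjusted p of 0.054 for Lpl and 0.067 for Mup11 without the 48 h library. The sign of Mup11 in P14, with a zone difference of 0.16, rests on 2 UMIs in members.

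**Figure D2:**
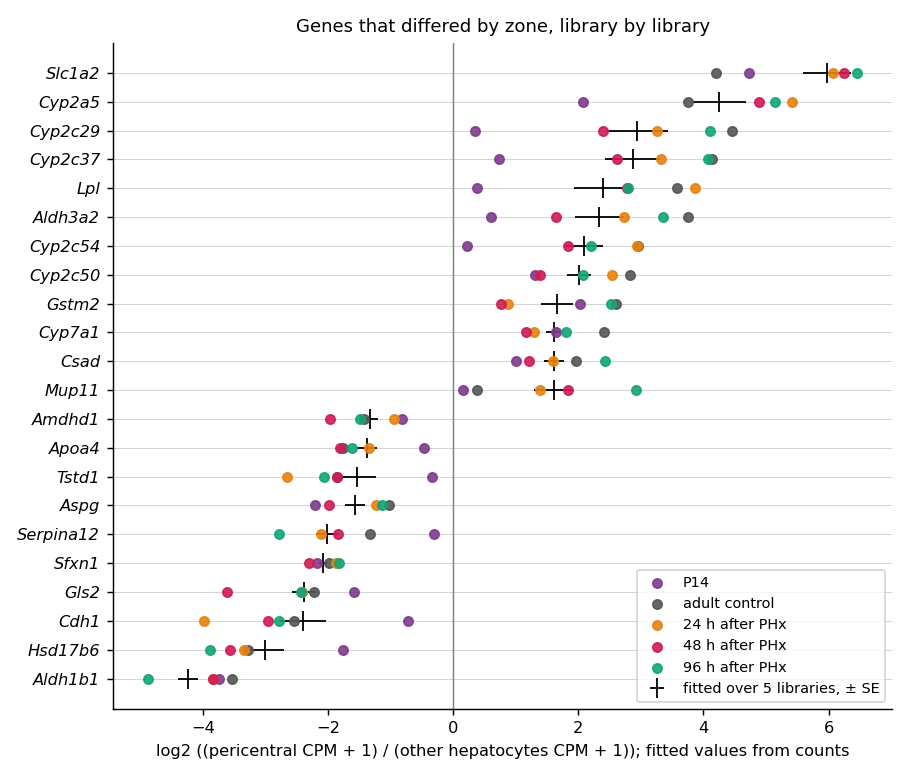
Log2 ratio of pericentral to other hepatocytes (CPM plus 1) in each library for the 12 highest and 10 lowest called genes that have a mean of at least 50 CPM and 1 sign in all libraries, with the value fitted over 5 libraries and its SE in black. The SE is derived from the F statistic of the fit and not from the spread of the points. All points of a gene lie on 1 side of 0, P14 lies nearest 0 for Cyp2a5, the Cyp2c genes, Aldh3a2 and Lpl, and Slc1a2 lies furthest right.

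The lower genes include metabolic enzymes, a transporter and a cell adhesion gene. Aldh1b1, a mitochondrial aldehyde dehydrogenase, was at 10.6 CPM (P14), 6.40 (adult control), 3.02 (24 h), 1.62 (48 h) and 9.79 (96 h) in members and at 154, 85.04, 56.8, 36.6 and 315 CPM in the other hepatocytes (fitted log2 difference −4.23 ± 0.16, edgeR adjusted p = 3.2e-07). Gls2, the liver glutaminase that releases ammonia from glutamine, was at 96.2 CPM (P14), 89.5 (adult control), 34.5 (24 h), 8.12 (48 h) and 76.5 (96 h) in members. The other hepatocytes had 292, 424, 188, 111 and 418 CPM, a fitted difference of −2.38 ± 0.20. Glutaminase was thus lower in members, where the glutamate transporter gene Slc1a2 was higher. Sfxn1, a mitochondrial serine transporter, had the smallest SE of the 22 genes named by size, at −2.08 ± 0.07, with library values between −2.31 and −1.83. Hsd17b6 of steroid metabolism stood at −3.00 ± 0.29, the epithelial cadherin gene Cdh1 at −2.40 ± 0.37, Serpina12 at −2.01 ± 0.19, the asparaginase gene Aspg at −1.56 ± 0.16, Tstd1 at −1.53 ± 0.30, the apolipoprotein gene Apoa4 at −1.38 ± 0.17 and Amdhd1 of histidine breakdown at −1.33 ± 0.14.

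Of 15 Wnt pathway genes tested, 9 were higher in members and 1 was lower, beside 3.85% and 4.42% of all genes, and the other 5 did not pass the test. The list had a median fitted log2 difference of 0.79 against 0.0011 over all 10804 genes. Lgr5, the R-spondin receptor, was at 10.6 CPM (P14), 13.1 (adult control), 18.3 (24 h), 19.9 (48 h) and 10.1 (96 h) in members, against 3.08, 0.519, 2.43, 2.36 and 0.104 CPM, a fitted difference of 2.83 ± 0.33 (edgeR adjusted p = 4.9e-04). Axin2, a feedback inhibitor and common readout of the pathway, was at 7.15 CPM (P14), 6.95 (adult control), 18.6 (24 h), 5.60 (48 h) and 10.6 (96 h), with a fitted difference of 2.01 ± 0.34 (edgeR adjusted p = 0.0048). The transcription factor genes Tbx3 (2.19 ± 0.25) and Sp5 (4.36 ± 0.36), the Wnt deacylase gene Notum (1.20 ± 0.13), Tnfrsf19 (2.18 ± 0.29), Tcf7 (1.03 ± 0.16) and the receptor-removing ligases Rnf43 (0.79 ± 0.12) and Znrf3 (0.64 ± 0.11) were higher too. Sp5 reached 2.19 to 6.91 CPM in members, and its promoter is the first one shown above. The co-receptor gene Lrp6 was lower (−0.33 ± 0.07). Ctnnb1, which encodes beta-catenin itself, had a fitted difference of −0.03 ± 0.05 (edgeR adjusted p = 0.82), and was at 119.6 CPM (P14), 188 (adult control), 202 (24 h), 144 (48 h) and 186 (96 h) in members.

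Listed zonation genes outside the score were set beside the label. They cannot test it, since genes that vary with the score genes differ by construction. Of 34 other pericentral genes 32 were higher, with a median of 1.42, and Mgst1 and Alas1 were not called. Of 22 other periportal genes 20 were lower, with a median of −0.84. Apoc3 was not called, and Prodh, the proline dehydrogenase gene, was higher (0.75 ± 0.12, edgeR adjusted p = 0.0041). These lists come from earlier knowledge of liver zonation and are not independent of the score genes. They were also chosen with earlier results of these data known. Against the middle 50% of scores, the same test called 297 genes higher (2.88%) and 316 lower (3.06%) of 10318, together 5.94%, and 288 and 309 genes were called in both comparisons. These counts were 169 and 158 without the adult control, 169 and 147 without the 24 h library, 178 and 213 without the 48 h library and 195 and 213 without the 96 h library. Compared with the middle 50%, 32 genes of the pericentral list were again higher and 20 of the periportal list lower.

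Metabolic lists were read against the 3.85% of all genes called higher and 4.42% called lower. Of 14 urea and nitrogen genes 9 were lower, among them Cps1, the first enzyme of the urea cycle (−0.61 ± 0.09), Arg1 (−0.89 ± 0.08) and Got1 (−0.90 ± 0.10), and the 2 higher ones were the transporters Rhbg and Slc1a2. Of 13 gluconeogenesis and glycogen genes 1 was higher and 11 were lower. Among the lower ones Ppargc1a, a coactivator of fasting genes, stood at −0.96 ± 0.08 and the glucose-6-phosphatase gene G6pc at −0.79 ± 0.11. Of 23 drug oxidation genes 12 were higher and 2 lower, and of 22 conjugation genes 8 were higher and 2 lower. The higher ones include the nuclear receptor genes Nr1i3 (0.83 ± 0.18) and Ahr (0.78 ± 0.11). Of 16 bile acid genes 3 were higher (Cyp7a1, Cyp27a1 and the uptake carrier Slco1b2) and 1 was lower, the 12-alpha-hydroxylase gene Cyp8b1 (−0.39 ± 0.08). Of 11 hypoxia genes 2 were higher, the oxygen sensor gene Egln3 (1.11 ± 0.14) and Ndrg1 (1.25 ± 0.24).

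Lipid, acute phase and cell cycle lists were read against the same shares. Of 19 fatty acid oxidation genes 4 were higher, among them Hadh, Ehhadh and Ppara. Of 15 fatty acid synthesis genes Me1 was higher (0.47 ± 0.10) and Acly lower (−0.93 ± 0.17), 1 gene in each direction, which is near the shares over all genes. Of 22 cholesterol synthesis genes 0 were called by edgeR, with 5 higher and 1 lower at an unadjusted p under 0.05, and DESeq2 called 4 higher. Of all 10804 genes 1112 were higher and 1186 lower at an unadjusted p under 0.05 in edgeR, and DESeq2 called 342 higher. Of 23 acute phase genes 4 were lower (Hpx, Lcn2, Fgb and Itih3), and Hpx, which encodes the haem scavenger hemopexin, was lowest of these at −0.96 ± 0.16 (edgeR adjusted p = 0.0049). Of 29 mitosis genes 0 were called by edgeR, 0 at an unadjusted p under 0.05 and 0 by DESeq2, and of 30 replication genes 0 were called by either tool, with 7 higher at an unadjusted p under 0.05 in edgeR. Of 6 midlobular genes Igfbp2, Cyp8b1 and Igf1 were lower. Of 13 dissociation genes, which respond to tissue handling, Fos (−0.43 ± 0.09) and Junb (−0.21 ± 0.06) were lower.

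The size of the zone difference varied between libraries. The median over the other pericentral genes was 0.67 (P14), 1.75 (adult control), 0.99 (24 h), 1.00 (48 h) and 1.66 (96 h), on the log2(CPM + 1) scale. Of the 33 or 34 usable genes, 11 (P14), 27 (adult control), 17 (24 h), 17 (48 h) and 29 (96 h) were at least 2-fold higher in members. Of all genes 44 of 8495, 127 of 8744, 83 of 8764, 80 of 8765 and 244 of 8966 were. The periportal list varied less, with medians of −0.79, −1.01, −0.74, −1.02 and −0.97. Its adult control median depended on the setting, at −1.67 with 10 to 20% mitochondrial UMIs and −0.70 with a pseudocount of 10 CPM. The median of all genes lay between −0.08 and 0.10. The zone difference of pericentral genes was thus smaller in P14 and at 24 h and 48 h than in the adult control, with the value at 96 h near it, and no test of this was possible with 1 library per group. The shares of hepatocytes past the adult limit of the thinned score, given above, cannot bear on this. They describe the genes of the rule, and the limit was set from the adult control itself. An effect of taking a fixed 25% on the medians of the zone difference cannot be told apart. As a ratio to the adult control, less the median over all genes, the pericentral list stood at −0.03 (P14), −0.15 (24 h), 0.12 (48 h) and 0.14 (96 h) in members, and at 0.54, 0.35, 0.50 and 0.45 in the other hepatocytes.

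**Figure D3:**
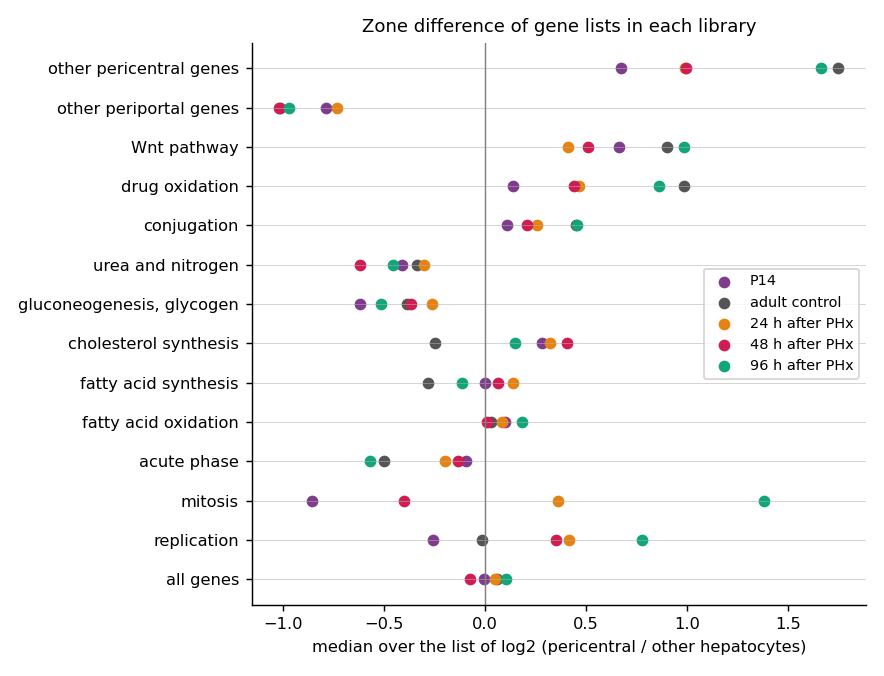
Median over each gene list of the log2 ratio of pericentral to other hepatocytes, 1 point per library. The other pericentral genes lie at 0.67 in P14 and 1.75 in the adult control, the periportal genes lie between −1.02 and −0.74. Each median is over listed genes of at least 5 CPM in either zone.

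Single genes with a smaller zone difference differed in where their levels stood. The zone difference of Cyp2c29 was 4.46 in the adult control and 0.34 in P14, where other hepatocytes had 354 CPM against 57.9 in the adult control. Gstm3, a glutathione transferase gene, was at 10.8 CPM (P14), 53.95 (adult control), 689 (24 h), 85.02 (48 h) and 181 (96 h) in members and at 3.06, 7.26, 515, 53.4 and 32.1 CPM in the others. Its zone difference was 2.73 (adult control), 0.42 (24 h) and 2.46 (96 h). At 24 h it was thus high in both zones. Aldh3a2 was lower in members at 24 h and 48 h, with 62.4 and 49.6 CPM against 219 in the adult control, and its zone difference at 48 h was 1.64.

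Other genes had a larger zone difference after PHx than in the adult control. For Slc1a2 and Cyp2a5 most of this gap went, or its sign turned, when free RNA was subtracted. The zone difference of Slc1a2 was 4.19 (adult control), 6.06 (24 h), 6.25 (48 h) and 6.45 (96 h), while its level in members was below that of the adult control in all 3. Cyp2a5 had 3.76 (adult control), 5.42 (24 h), 4.89 (48 h) and 5.14 (96 h). Free RNA was most abundant in the adult control. With it subtracted the zone difference of Slc1a2 was 6.21 (adult control), 6.64 (24 h), 6.34 (48 h) and 7.01 (96 h). That of Cyp2a5 was then 5.75 (adult control), 6.06 (24 h), 4.95 (48 h) and 5.60 (96 h), below the adult control at 48 h and 96 h. Cyp4a10, an omega-hydroxylase of fatty acids, was at 158 CPM (P14), 21.97 (adult control), 15.8 (24 h), 32.3 (48 h) and 283 (96 h) in members and at 111, 14.2, 7.23, 6.37 and 48.01 CPM in the others. Its zone difference was 0.59 (adult control), 2.18 (48 h) and 2.53 (96 h), and with free RNA subtracted 0.68, 2.19 and 2.61. Mup11 had 2 UMIs in P14 members, and was at 33134, 15647, 4288 and 1026 CPM in those of the adult control and of the libraries after PHx in the order of hours. The other hepatocytes of these libraries had 25344, 6004, 1199 and 135 CPM, so that its zone difference was 0.39 in the adult control and 2.92 at 96 h, when its level was lowest of the adult libraries. Major urinary protein genes are near-identical copies, so values for single members are uncertain.

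At the periportal side, Ctsc, the dipeptidyl peptidase cathepsin C, had a zone difference of −3.03 in the adult control and −5.42 at 96 h, and Spp1, which encodes osteopontin and is also a bile duct marker, −2.92 and −5.31, with −5.30 at 24 h. With free RNA subtracted Ctsc had −4.87 and −6.97, and Spp1 −3.96 (adult control), −5.80 (24 h) and −5.63 (96 h). Slc3a1, part of a cystine transporter, went from −2.79 to −1.19 at 24 h. In P14 the differences of Tff3 (−0.33 against −3.02 in the adult control), Plxna2 (−0.51 against −2.48) and Cdh1 (−0.71 against −2.55) were smaller. Cyp3a11, a main drug-metabolising cytochrome, had a zone difference of 2.97 in the adult control and 1.29 at 96 h, when other hepatocytes had 2459 CPM against 540.2 in the adult control.

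The next comparison set pericentral hepatocytes of each library against those of the adult control. At least 4-fold higher were 266 of 9078 genes of at least 5 CPM in P14 (2.93%), 288 of 9147 at 24 h (3.15%), 271 of 9104 at 48 h (2.98%) and 144 of 9100 at 96 h (1.58%). At least 4-fold lower were 364 (4.01%), 123 (1.34%), 143 (1.57%) and 39 (0.429%). In the other hepatocytes 279 of 8980 genes (3.11%) were higher in P14, 237 of 8953 (2.65%) at 24 h, 276 of 9012 (3.06%) at 48 h and 59 of 8812 (0.67%) at 96 h, and 326 (3.63%), 94 (1.05%), 112 (1.24%) and 43 (0.488%) were lower. At 96 h the share of higher genes was larger in members than in the others, which was not tested. All 4 comparisons share the 1 adult control library. The counts in members depended on the settings, and with a pseudocount of 10 CPM 91 (P14), 60 (24 h), 73 (48 h) and 25 (96 h) were higher. With 10 to 20% mitochondrial UMIs, which left few members, 542 were higher and 682 lower at 96 h. TMM scaling moved the median of all genes by 0.31 in P14 and 0.20 at 48 h, so list values are given after subtracting the median over all genes. In sums over a zone, other levels within cells and another choice of cells by the score cannot be told apart.

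Cell cycle genes were among those with the highest ratios after PHx. Mki67, a marker of dividing cells, was at 25.5 CPM (P14), 0.278 (adult control), 59.8 (24 h), 111 (48 h) and 54.8 (96 h) in members and at 60.5, 1.87, 42.9, 124 and 23.4 CPM in the other hepatocytes. Ube2c, a ubiquitin-conjugating enzyme of mitotic exit, was at 26.01 CPM (P14), 1.11 (adult control), 61.1 (24 h), 162 (48 h) and 38.9 (96 h), and Birc5, which encodes survivin of the chromosomal passenger complex, at 23.1 CPM (P14), 3.34 (adult control), 38.2 (24 h), 93.3 (48 h) and 82.03 (96 h). Cdca3 was at 13.2 CPM (P14), 1.95 (adult control), 34.5 (24 h), 87.00 (48 h) and 115 (96 h), highest at 96 h. Pclaf, which binds the replication clamp, was at 0 UMIs in adult control members and at 60.4 and 61.2 CPM at 24 h and 48 h, at least 72.4-fold and 73.3-fold higher than a floor of 3 UMIs per summed library. Over all listed genes, whatever their level, mitosis genes made up 0.0263% (P14), 0.00161% (adult control), 0.0646% (24 h), 0.132% (48 h) and 0.0763% (96 h) of member UMIs. In the middle 50% the shares were 0.0513%, 0.00387%, 0.0554%, 0.203% and 0.0357%, and in the lowest 25% 0.0583%, 0.00451%, 0.0346%, 0.142% and 0.0128%. The share was thus highest in members at 24 h and 96 h, and in another zone in the other 3 libraries, which was not tested. Replication genes made up 0.0319%, 0.0283%, 0.138%, 0.0833% and 0.0485% of member UMIs and 0.0396%, 0.0236%, 0.0699%, 0.0658% and 0.0296% in the lowest 25%. Mcm10 went against its list, at 5.56 CPM (P14), 156 (adult control), 25.7 (24 h), 27.4 (48 h) and 86.5 (96 h) in members.

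Shares of cycling cells were then compared by zone, with the cycling call at equal depth and zone membership from the score at full depth. In these shares a difference between zones and other levels of the score genes in cycling cells cannot be told apart. A barcode thinned to 5000 UMIs counted as mitosis-positive or replication-positive when at least 3 genes of that list had a UMI. At 24 h 61.9% of members (exact 95% interval 56.1% to 67.5%) were replication-positive, against 45.8% (42.4% to 49.1%) of the other hepatocytes and 30.8% of the lowest 25%. Mitosis-positive at that time were 20.4% (16.0% to 25.5%) of members and 14.3% (12.02% to 16.8%) of the others. At 48 h the mitosis share was 33.9% (27.01% to 41.3%) in members and 43.97% (39.7% to 48.3%) in the others, a difference of −10.1 points. Its sign depended on the choice of cells, as it was 7.96 points with the highest 10% as members and 6.90 points with 10 to 20% mitochondrial UMIs. Replication stood at 35.6% and 35.3%. At 96 h 22.2% (16.5% to 28.7%) of members and 7.63% (5.60% to 10.1%) of the others were mitosis-positive, with 3.61% in the lowest 25%. Replication-positive were then 14.9% (10.2% to 20.8%) and 8.32% (6.20% to 10.9%). In the adult control 0 of 232 members were mitosis-positive, which allows a share of up to 1.58% by the exact interval, and 0.577% of the others were. In P14 members had the lower share, 7.40% (5.32% to 9.98%) against 13.7% (12.1% to 15.5%) for mitosis and 10.4% against 14.1% for replication, where the difference turned to 1.10 points without thinning.

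**Figure D4:**
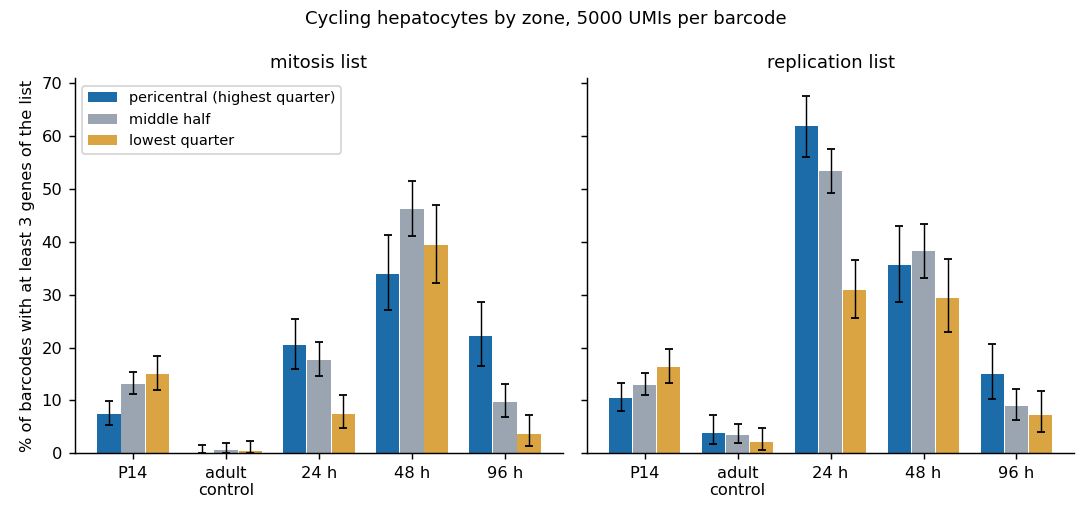
Percentage of barcodes thinned to 5000 UMIs with at least 3 genes of the mitosis list (left) or replication list (right), for the pericentral 25%, the middle 50% and the lowest 25% of the zone score, with exact 95% intervals for counting error. At 24 h the replication share runs from 61.9% in the pericentral to 30.8% in the lowest group, at 96 h the mitosis share from 22.2% to 3.61%, and in P14 the mitosis share is lowest in the pericentral group.

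The exact intervals of members and other hepatocytes lay apart for replication at 24 h and for mitosis at 96 h and in P14, and overlapped in the other 7 pairs. These intervals cover counting error between cells of 1 library and not the variation between mice. At 48 h members were split by score. In the highest 10% of scores 48.6% (36.7% to 60.7%) of 72 cells were mitosis-positive, and between the 75th and 90th percentile 24.1% (16.4% to 33.3%) of 108, a split made after the values were seen. Median depth before thinning was 48032 and 32631 UMIs in these groups. With the score taken on thinned barcodes the shares were 43.8% (32.2% to 55.9%) and 28.2% (20.02% to 37.6%), at depths of 35441 and 33830, and these intervals overlapped. At 24 h and 96 h the same groups had mitosis shares of 23.7% and 18.2%, and 21.8% and 22.4%, and at 24 h the order was turned with the score on thinned barcodes (16.5% and 22.7%). At 96 h a limit of 20% mitochondrial UMIs left only 14 members, of which 1 was mitosis-positive (7.14%), below the others. Without Mcm10 in the list the replication-positive share was 0.862% in adult control members in place of 3.88%, and 60.5% at 24 h.

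Most cholesterol synthesis genes stood higher in members after PHx than in members of the adult control. Hmgcs1, an early enzyme of the pathway, was at 186 CPM (P14), 504 (adult control), 1623 (24 h), 1231 (48 h) and 1192 (96 h) in members and at 143, 598, 1075, 793 and 791 CPM in the others. Its log2 ratio to the adult control in members was 1.68, 1.29 and 1.24 at 24 h, 48 h and 96 h. Sqle, the squalene epoxidase gene, was at 3.01 CPM (P14), 55.9 (adult control), 205 (24 h), 154 (48 h) and 108 (96 h) in members, and Idi1, the isopentenyl diphosphate isomerase gene, at 14.5 CPM (P14), 294 (adult control), 806 (24 h), 434 (48 h) and 443 (96 h). Of 22 listed genes 20 (24 h), 20 (48 h) and 21 (96 h) were above the adult control, and 11, 6 and 4 were at least 2-fold higher. Of all genes 4431 of 9147, 3493 of 9104 and 5030 of 9100 were above it, and 943, 756 and 594 were at least 2-fold higher. In the other hepatocytes 18, 14 and 18 of the 22 were above the adult control and 1 at each time was at least 2-fold higher, against 754 of 8953, 805 of 9012 and 341 of 8812 of all genes. The median less that of all genes was 1.05, 0.94 and 0.63 in members and 0.52, 0.16 and 0.22 in the others. The median zone difference of the list was below 0 in the adult control (−0.25) and above 0 at 24 h (0.32), 48 h (0.40), 96 h (0.15) and in P14 (0.28). These differences were not tested, as each rests on 1 library. In P14 members the median of the list against the adult control, less that of all genes, was −1.46.

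Fatty acid synthesis genes had medians of −0.46, −0.28 and 0.18 in members at 24 h, 48 h and 96 h, and −0.76, −0.96 and −0.19 in the others. Scd1, the stearoyl-CoA desaturase gene, was at 40.3 CPM (P14), 3169.5 (adult control), 2551 (24 h), 1874 (48 h) and 2596 (96 h) in members, and Thrsp, a gene induced by thyroid hormone and feeding, at 4.73 CPM (P14), 331 (adult control), 107 (24 h), 80.1 (48 h) and 188 (96 h) against 26.6, 550.4, 102, 54.5 and 317 CPM in the others. Thrsp was thus higher in members than in the others at 48 h and slightly so at 24 h, and lower in the adult control, at 96 h and in P14. The log2 ratio of Cyp7a1 to the adult control was 2.55 and 2.63 at 48 h and 96 h in members, and 3.79 and 3.23 in the other hepatocytes.

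**Figure D5:**
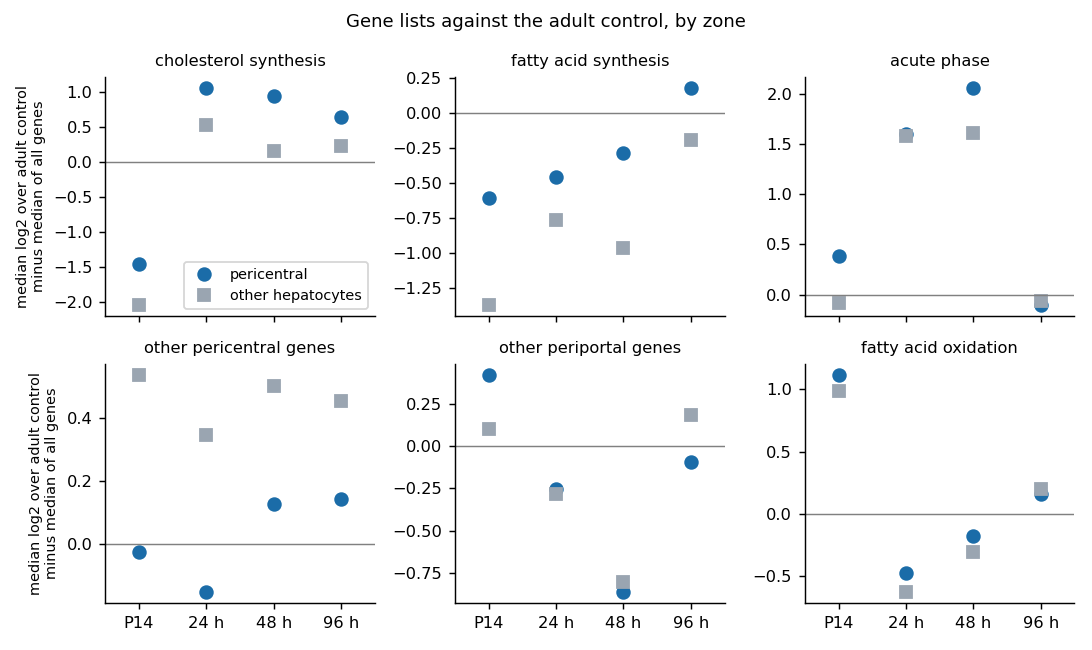
Median log2 ratio to the adult control of 6 gene lists, minus the median of all genes, for pericentral (circles) and other (squares) hepatocytes of 4 libraries, each panel with its own vertical scale. For cholesterol synthesis the pericentral values of 1.05, 0.94 and 0.63 at 24 h, 48 h and 96 h lie above those of other hepatocytes, and for the other pericentral genes they lie below them.

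Acute phase proteins are secreted by the liver in inflammation. Of 23 listed genes 20 at 24 h and 17 at 48 h were at least 2-fold higher in members than in those of the adult control, beside 943 of 9147 and 756 of 9104 of all genes. In the other hepatocytes 17 of 23 and 16 of 22 usable ones were, beside 754 of 8953 and 805 of 9012. At 96 h the count was 3 of 22 in either zone, beside 594 of 9100 of all genes in members and 341 of 8812 in the others. Lcn2, the siderophore-binding lipocalin 2, was at 38.01 CPM (P14), 40.05 (adult control), 3616 (24 h), 2758 (48 h) and 124 (96 h) in members and at 56.2, 84.9, 5293, 3519.7 and 272 CPM in the others. The metal-binding metallothionein genes Mt1, at 273 CPM (P14), 58.7 (adult control), 7196 (24 h), 6483 (48 h) and 162 (96 h), and Mt2, at 10.99 CPM (P14), 17.5 (adult control), 3367 (24 h), 2394 (48 h) and 21.4 (96 h), were the highest ratios to the adult control in members at 24 h. The acute phase list made up 2.96% (P14), 2.02% (adult control), 10.3% (24 h), 16.0% (48 h) and 2.06% (96 h) of member UMIs, and 3.40%, 12.4%, 14.6% and 3.69% of those of the lowest 25% in the 4 adult libraries, in the same order. Saa2, serum amyloid A2, was at 7.09 CPM (P14), 808 (adult control), 20939 (24 h), 41803 (48 h) and 380.2 (96 h) in members and at 4.87, 1584, 21086, 27867 and 1049 CPM in the others. Its zone difference was −0.97 (adult control), −0.01 (24 h), 0.59 (48 h) and −1.46 (96 h), so that only at 48 h and in P14 (0.46) was it higher in members. Neutrophil and monocyte genes were also highest in members at 24 h and 48 h, and their part in these levels was not tested.

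A clock gene, enzyme genes and urinary protein genes were among those lowest against the adult control. Dbp, a clock output transcription factor gene, was at 16.4 CPM (P14), 150.5 (adult control), 8.20 (24 h), 1.44 (48 h) and 96.05 (96 h) in members. Arrdc3, an arrestin-domain gene, was at 78.02 CPM (P14), 187 (adult control), 13.4 (24 h), 7.22 (48 h) and 189 (96 h), Inmt, a methyltransferase gene, at 302 CPM (P14), 239 (adult control), 15.5 (24 h), 64.1 (48 h) and 296 (96 h), and Selenbp2, a selenium-binding protein gene, at 144 CPM (P14), 1181 (adult control), 79.9 (24 h), 84.8 (48 h) and 429 (96 h). Each of the 4 stood below its adult control level at 24 h and at 48 h. At 96 h Arrdc3 and Inmt were slightly above it, and Dbp and Selenbp2 below it. The hour at which livers were taken is not given in the labels. Moxd1 was at 0 CPM (P14), 136 (adult control), 88.5 (24 h), 1.44 (48 h) and 0 (96 h) and the unnamed transcript AC169509.3 at 3.07 CPM (P14), 58.1 (adult control), 0.863 (24 h), 0.903 (48 h) and 7.94 (96 h). The urinary protein genes Mup16 (0 CPM (P14), 2414 (adult control), 1014 (24 h), 118 (48 h) and 29.6 (96 h)), Mup17 (0 CPM (P14), 18332 (adult control), 6027 (24 h), 1025 (48 h) and 285 (96 h)) and Mup18 (0.0591 CPM (P14), 317 (adult control), 249 (24 h), 17.9 (48 h) and 5.82 (96 h)) were lowest at 96 h among the adult libraries. Mup17 was also a zonated gene in the adult control, at 18332 CPM in members and 1514 in the others, with a fit of 3.18 ± 0.25 that rests on the 4 adult libraries, as Mup17 had 0 UMIs in both zones of P14, whereas Mup20 was higher outside the zone (12710.1 against 24839.7 CPM). The fatty acid omega-hydroxylase gene Cyp4a14 was at 128 CPM in members at 96 h against 2.50 in the adult control.

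P14 members differed from adult ones in genes of the immature liver. H19, an imprinted RNA of fetal and neonatal liver, was at 7374 CPM in P14 members and 11617 in the other P14 hepatocytes, and at 0 UMIs in adult members of all 4 libraries. Afp, alpha-fetoprotein, was at 1279 CPM (P14), 0.834 (adult control), 3.02 (24 h), 5.60 (48 h) and 2.91 (96 h) in members and at 453, 0.519, 3.31, 4.07 and 3.85 CPM in the others. It was thus higher in the pericentral zone of P14, with a zone difference of 1.49, and its fit over 5 libraries was 0.97 ± 0.24 (edgeR adjusted p = 0.036). DESeq2 did not call it, and the zone difference was −0.10 at 24 h and −0.31 at 96 h, so the pattern over libraries was mixed. Sult2a1, a sulfotransferase gene, was at 1084 CPM in P14 members and at 0 UMIs in adult control members. Mup11, Mup17, Mup7 and Mup20 had 0 to 0.414 CPM in P14 members against 12710.1 to 33134 in the adult control. The P14 and adult libraries differ in sex-linked genes as well as in age. Lpl stood at 1267 CPM (P14), 45.6 (adult control), 22.4 (24 h), 70.4 (48 h) and 243 (96 h) in members, and in P14 the other hepatocytes had 971 CPM.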

How the data were processed

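UMI counts per gene and barcode were deposited by the authors as unfiltered matrices, with 31053 genes and no cell annotation. Per the submitters' processing notes, reads were handled with bcl2fastq 2.17.1.14, Cell Ranger and Seurat 3.1 on mm10, and per the file headers the matrix software was 3.0.2. The members and gene lists were chosen with earlier results of these data known. From the counts, hepatocytes were selected and ranked by the zone score, and raw UMIs were summed per library and zone without the 8 score genes and 13 mitochondrial genes. Zones were compared with edgeR 4.0.16 (quasi-likelihood, library as block, TMM, filterByExpr, Benjamini-Hochberg adjusted p under 0.05) in R 4.3.3, with DESeq2 1.42.0 as an alternative. On simulated data with 10631 genes, edgeR recovered 74% of genes raised 2-fold and 100% of those raised 4-fold, and called 0.0671% of unchanged genes. The simulation had a fixed dispersion, the same fold in every library and no sorting by score, so these rates may not hold for the real zones. Each group was 1 library, so library ratios, log2((CPM + 1)/(CPM + 1)) for genes of at least 5 CPM in either, have no test, and exact intervals cover counting error only. Named genes were the 12 highest and 10 lowest zone differences (mean of at least 50 CPM, 1 sign in 5 libraries), the 4 highest and 4 lowest ratios to the adult control per library (at least 50 CPM in either), the 3 genes whose zone difference moved most each way (at least 200 UMIs in hepatocytes of both libraries, at least 20 CPM), and list genes told by role. Doublets were taken as the barcodes with the highest scrublet scores (scanpy 1.11.5), with their number per library set in advance from the count of barcodes. Those among the members (7, 2, 1, 0 and 2 from P14 to 96 h) were kept, and doublets were left out as an alternative. Promoters came from a RefSeq table (GRCm38.p6).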

Additional observations from a re-analysis of the deposited data

Results flagged for a closer look

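The zone difference in mitosis-positive cells had opposite signs in P14 and at 96 h after PHx. The share among pericentral hepatocytes minus that among the other hepatocytes was −6.34 percentage points in P14 and 14.5 points at 96 h. With 10 to 20% mitochondrial UMIs, which left 14 members, the value at 96 h was −3.11 points, so that the opposite sign did not hold under that limit. The difference between these 2 libraries was not tested, since each group is 1 library. In P14 the difference lay with the lowest 25% of scores (14.99%) and the middle 50% (13.1%) alike, against 7.40% in members. The P14 library also differed from the others in sex-linked genes, and the part of sex in this difference cannot be told apart from that of age.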

How the results depend on the processing

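The 22 zone genes named by size were picked for a call and 1 sign in all 5 libraries, so their refits were bound to agree largely. Of these 352 refits 350 kept direction and call, and Lpl and Mup11 lost the call without the 48 h library. Leaving out 1 library gave 226 to 498 higher and 241 to 602 lower genes, and 169 to 384 and 147 to 399 against the middle 50%. With 10 to 20% mitochondrial UMIs 140 were higher and 163 lower, and without the count filter 821 were lower. The zone fits already hold the library as a block. No paired analysis was possible between groups because each group is 1 library.

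The periportal zone median with the highest 10% as members was −1.01 (P14), −1.29 (adult control), −0.90 (24 h), −1.19 (48 h) and −1.51 (96 h). With 10 to 20% mitochondrial UMIs it was −1.67 (adult control), −1.01 (24 h), −1.20 (48 h) and −1.14 (96 h). It was −0.87 with the highest 33.3% and −0.70 with a pseudocount of 10 CPM in the adult control, and −0.78 at 48 h with a score on 3 genes.

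Genes at least 4-fold higher numbered 495 (P14), 567 (24 h), 569 (48 h) and 542 (96 h) with 10 to 20% mitochondrial UMIs, and 374, 318 and 682 were lower after PHx, where few members were left. With a pseudocount of 10 CPM the counts were 91, 60, 73 and 25 higher and 151, 26, 38 and 16 lower. Among genes of at least 50 CPM they were 85, 67, 73 and 23 higher and 184, 49, 67 and 18 lower. The highest 10% gave 63 lower at 96 h. Of 863 list medians over the adult control 3 turned sign: replication in P14 (−2.14 among genes of at least 50 CPM), and immature liver genes at 48 h (−1.08) and 96 h (−2.67) with 10 to 20% mitochondrial UMIs.

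Shares of positive cells followed the depth and the number of genes asked for. Not thinned, mitosis-positive members made up 15.6% (P14), 38.4% (24 h), 44.4% (48 h) and 34.5% (96 h), and replication-positive ones 78.2% (P14), 42.2% (adult control), 87.8% (24 h), 90% (48 h) and 70.1% (96 h). With at least 2 genes mitosis was at 25.9% at 24 h, and replication at 25.05%, 19.8%, 72.4%, 53.3% and 32.99%. With at least 5 genes mitosis was at 12.6% (24 h) and 11.9% (96 h), and replication at 4.36%, 0%, 37.4%, 20.6% and 5.15%. In the highest 10% at 48 h the shares were 48.6% and 50%. With 10 to 20% mitochondrial UMIs mitosis was at 62.1% (48 h) and 7.14% (96 h), replication at 0% (adult control), 55.2% (48 h) and 0% (96 h), and at 96 h, with 14 members, the difference from the other hepatocytes was −3.11 points for mitosis and −12.8 for replication. Without Mcm10 replication was at 0.862% in the adult control. The cause of these differences between settings was not tested, beyond the smaller number of cells that the mitochondrial limit leaves.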
